A study of Mus musculus with 8 samples.

Results

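Aldh1a2, Rara, Rarb, Rarg, Rxra, Crabp1, Crabp2, Cyp26a1 and Cyp26b1 make, carry, read or clear retinoic acid, and their RNA was measured in nephron progenitors of the mouse kidney that differ in labelled Smo genotype. The 9 genes were chosen by name among the 24539 gene symbols of the deposited table. 8 of them passed the filter on low counts, which left 13459 genes for testing, and Cyp26a1 did not. The cells were taken at E18.5, late in gestation, by fluorescence-activated sorting for Six2GFPcre, a transgene that makes a fusion of GFP and Cre recombinase in progenitors that express Six2. Each of 4 groups had 2 libraries. The KO-labelled group carries 2 conditional Smo alleles (Smo c/c), the Het-labelled group 1 (Smo c/+), and the WT-labelled group none (Smo +/+). The SmoM2-labelled group is Smo +/+ and has in addition a Rosa26 SmoM2/+ allele, from which Cre turns on an active form of Smo. All 4 groups carry Six2GFPcre, the WT-labelled group included, so Cre and GFP are shared by every library, and alleles change only in cells in which the transgene has been active. According to the title and design of the series, the series is about the part of Hedgehog signalling in nephron progenitors.

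Retinoic acid is made from vitamin A in consecutive oxidations, and ALDH1A2 carries out the last of them in much of the embryo. Inside the cell, CRABP1 and CRABP2 bind it, and it acts by binding a retinoic acid receptor (RARα, RARβ or RARγ) that sits on DNA together with a retinoid X receptor such as RXRα. Enzymes of the CYP26 family oxidise and so remove it. In the developing kidney, retinoic acid made outside the ureteric bud is known to act on receptors in the bud, where it maintains Ret, the receptor through which the bud is told to branch. Rarb and Cyp26a1 are classic direct targets, through paired DNA repeats close to their start sites.

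Those repeats are shown first because they are the DNA letters that tie members of this gene set to the pathway itself. Promoter sequences from RefSeq (build GRCm38.p6, the mm10 assembly that the submitters' processing notes name) run from 250 bases before to 50 bases after an annotated start, and 8 of the 9 genes matched, with 13 windows. No entry matched Crabp2. The windows were searched on both strands for 2 copies of a 6-base unit (AGGTCA, its variant GGGTCA, the variant AGTTCA or the variant GGTTCA) spaced by 5 bases, a form of the retinoic acid response element. Of the 13 windows 2 held it, against 0.0974% of all 32851 windows of this length. They belong to the 2 genes named above as classic targets through such repeats, so the count is not a result about the set. The match lay in the windows of Rarb (chr14:16575507-16575535, minus strand, flanks included) and of Cyp26a1 (chr19:37697770-37697798, plus strand, where the units read on the opposite strand). Each is printed in the direction of its gene with 6 bases on either side, and capitals mark the 2 units and their spacer.
Rarb: gggaagGGTTCACCGAAAGTTCActcgca
Cyp26a1: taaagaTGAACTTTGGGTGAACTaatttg
The capitals end 37 bases before the annotated start of Rarb and 16 bases before that of Cyp26a1, as the plot of motif positions shows. None of the 13 windows held the units at a spacing of 1 or 2 bases (0.222% and 0.268% of all windows) or a GLI site, TGGGTGGTC or its reverse complement GACCACCCA (0.253% of all windows). Crabp1, the member with the largest changes between groups that rest on more than a few reads, was among the genes without any of these letters. The 250 bases before its annotated start (chr9:54764498-54764747, plus strand, none in capitals because none matched) read as follows.
Crabp1: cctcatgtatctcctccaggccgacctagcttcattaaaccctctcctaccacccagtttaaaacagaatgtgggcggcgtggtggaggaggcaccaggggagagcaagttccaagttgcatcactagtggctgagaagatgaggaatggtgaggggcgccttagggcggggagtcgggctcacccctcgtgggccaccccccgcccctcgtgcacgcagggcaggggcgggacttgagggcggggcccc
A missing match says only that these letters are not in this window.

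**Figure D1:**
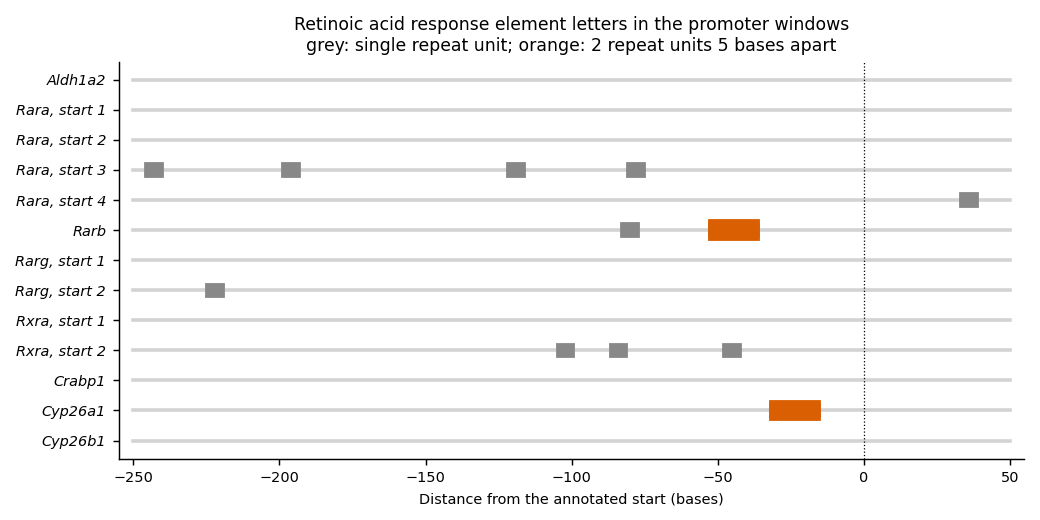
Positions of the 6-base repeat units in the 13 promoter windows of 8 genes, with the distance from the annotated start in bases on the horizontal axis and one row per window. Orange blocks mark the 2 windows, of Rarb and Cyp26a1, in which a pair of units is spaced by 5 bases. Grey blocks mark single units, and the Crabp1 window holds none.

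The level of Smo checks the labels. It was 13.1 and 11.1 CPM (read counts relative to the scaled library size) in the KO-labelled libraries and 14.4 and 23.95 in the Het-labelled ones. It was 363 and 375 CPM in the WT-labelled libraries and 605 and 629 in the SmoM2-labelled ones. The Het-labelled level, from a group with 1 allele labelled wild-type, differed from the WT-labelled level by -4.28 log2 units (SE 0.199, edgeR adjusted p = 1.55e-06), so that group is called by its label throughout and no dose is read from it.

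The deposited counts summed to between 4422305 and 10305398 reads per library, lowest in the KO-labelled pair. Nephron progenitor markers were present in every library, with all 10 listed genes detected in each group and a summed level between 4159 and 6191 CPM. Their levels were not equal between groups. Of the 10, 2 rose and 1 fell in the KO- against the WT-labelled group, where 11.6% of all tested genes were higher and 11.4% lower. In the Het-labelled group 4 rose against the WT-labelled one (13.1% of all tested genes) and 6 against the SmoM2-labelled one (16.9%), and none fell. Other marker lists also differed between groups. Renal vesicle genes, which mark the first step of differentiation, summed to 1361 to 1670 CPM in the KO-labelled libraries and to 452 to 760 CPM in all others. In the KO- against the WT-labelled group 7 of 8 rose, where 11.6% of all tested genes were higher. Dissociation stress genes summed to 6678 to 6695 CPM in the Het-labelled libraries, 3072 to 4774 in the KO-labelled, 2420 to 2527 in the WT-labelled and 2746 to 4036 in the SmoM2-labelled ones. By Xist and Y-linked reads, both KO-labelled libraries were male, both Het-labelled libraries were female, and the other groups had 1 of each. Short genes stood higher than long ones in the KO-labelled libraries: the median log2 difference from the WT-labelled group was 0.284 for genes up to 2000 bases and -0.231 for genes over 4000 bases. The part of these differences in the results below was not tested except where values are given. In sorted bulk cells, fewer expressing cells and less RNA per cell cannot be told apart. The labels do not say that the libraries of a group came from separate animals. The WT- and SmoM2-labelled pairs differ in sex and so in animals, while for the KO- and Het-labelled pairs the spread between libraries may be technical. The fit shares its estimate of the spread over all 4 groups. Every p-value, also that of the SmoM2- against the WT-labelled group, thus rests in part on a spread that may be technical. The difference in sex within the WT- and SmoM2-labelled pairs enters that spread as well.

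Read per length, as RPKM over the 8 libraries, the set was dominated by its synthetic enzyme. Aldh1a2 had a median of 259 RPKM and ranked between 141 and 185 of 24539 genes. Crabp2 followed at a median of 29.7 RPKM, Rara at 22.1, Rxra at 10.7, Rarb at 8.03, Crabp1 at 7.87 and Rarg at 4.02 RPKM. Both clearing enzymes were close to nothing, Cyp26b1 at 0.192 and Cyp26a1 at 0.105 RPKM. In that order the ranges over libraries do not overlap between Aldh1a2 and Crabp2, between Rara and Rxra, and between Rarg and Cyp26b1. All other neighbours overlap, so their order is not separated by these libraries.

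**Figure D2:**
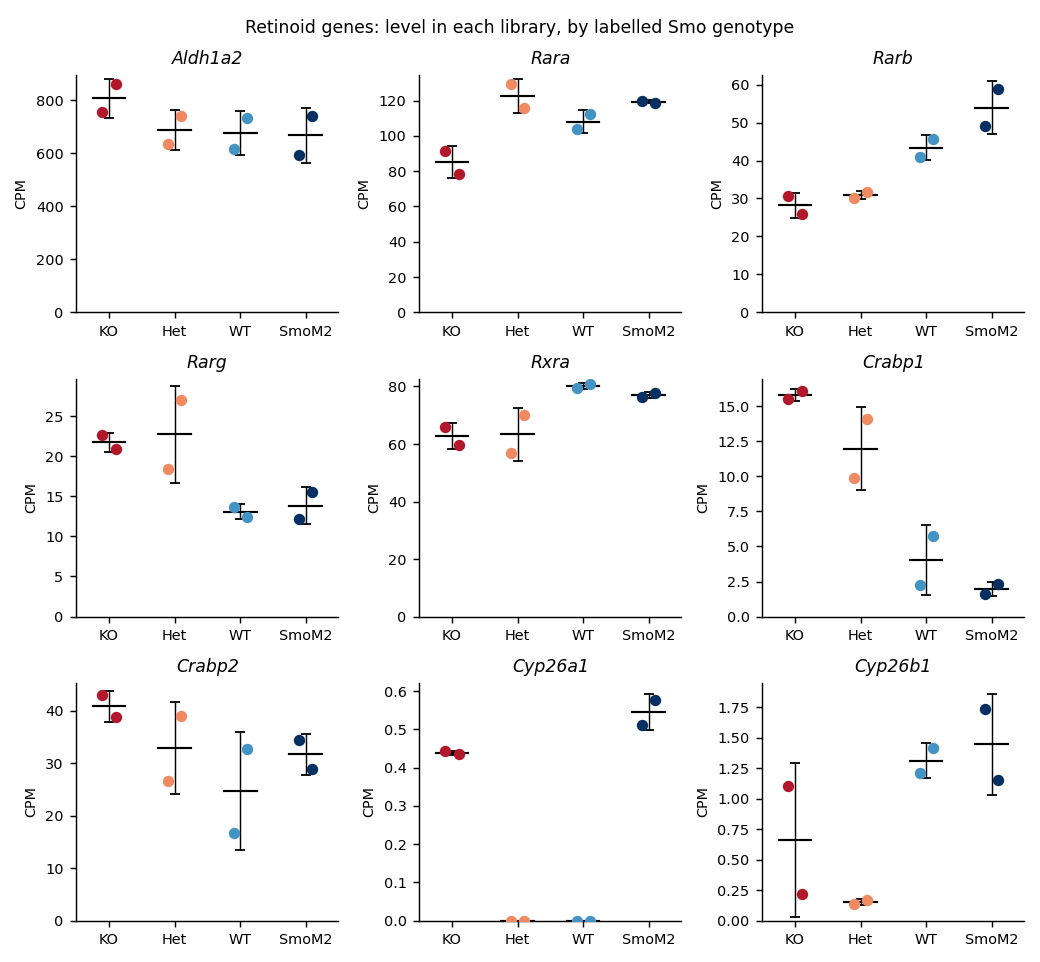
Level of each of the 9 genes in CPM (vertical axis, from 0, a separate scale for each gene) in the 4 groups by label. Points are libraries, bars the mean and whiskers the SD of 2 libraries. Crabp1 falls from 15.8 CPM in the KO-labelled mean to 1.97 in the SmoM2-labelled mean, Rarb runs the other way from 28.2 to 53.9, and Aldh1a2 overlaps between the Het-, WT- and SmoM2-labelled groups.

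Aldh1a2, the retinaldehyde dehydrogenase that makes retinoic acid, did not pass the test in any of the 6 comparisons. Its level was 756 and 860 CPM in the KO-labelled libraries, 636 and 741 in the Het-labelled, 617 and 734 in the WT-labelled and 595 and 741 in the SmoM2-labelled ones. The KO-labelled libraries were the highest and overlapped with no other group, and the remaining 3 groups overlapped with each other. The KO- minus WT-labelled difference was 0.26 log2 units (SE 0.152, edgeR adjusted p = 0.241), with a 95% interval from -0.08 to 0.59. For the SmoM2- minus WT-labelled difference the interval ran from -0.35 to 0.32 log2 units. With sex as a factor in the model, the KO- minus WT-labelled difference was 0.41 (edgeR adjusted p = 0.0435) and the KO- minus SmoM2-labelled difference 0.43 (edgeR adjusted p = 0.0298), so both passed the test there. Here and wherever sex is a factor below, its term is estimated from the WT- and SmoM2-labelled pairs alone and carried over to the other groups. In those pairs replicate 1 is male and replicate 2 female, so sex and replicate number cannot be told apart.

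Crabp1, a binding protein that holds retinoic acid in the cytoplasm, showed the widest spread over groups among the members tested with more than a few reads. Its level was 15.5 and 16.1 CPM in the KO-labelled libraries (70 and 74 reads), 9.89 and 14.1 in the Het-labelled (74 and 83 reads), 2.24 and 5.77 in the WT-labelled (24 and 53 reads) and 1.64 and 2.31 in the SmoM2-labelled ones (16 and 20 reads). The KO- and Het-labelled libraries all lay above every WT- and SmoM2-labelled library, and the last 2 groups overlapped. Crabp1 rose by 2.00 log2 units in the KO- against the WT-labelled group (SE 0.391, edgeR adjusted p = 0.00512), a ratio of means of 3.95. Against the SmoM2-labelled group it was 3.0 log2 units higher in the KO-labelled group (SE 0.427, edgeR adjusted p = 0.000542) and 2.59 higher in the Het-labelled group (SE 0.425, edgeR adjusted p = 0.0011). Those 3 calls were made in all 14 other settings tried. Crabp1 has a length of 802 bases in the table, and with the GC and length trends removed the KO- minus WT-labelled difference was 1.56 (edgeR adjusted p = 0.02). The Het- minus WT-labelled rise was 1.59 (SE 0.388, edgeR adjusted p = 0.0127). It was not called without Het-labelled replicate 2 (1.30, edgeR adjusted p = 0.094) or without WT-labelled replicate 1 (1.04, edgeR adjusted p = 0.0565). Between the SmoM2- and WT-labelled groups the difference was -1.0 (95% interval -1.98 to -0.02), with an unadjusted p of 0.0455 and an edgeR adjusted p of 0.639.

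Crabp2, which delivers retinoic acid to the receptors, passed the test in none of the 6 comparisons. Its level was 43.0 and 38.8 CPM in the KO-labelled libraries, 26.7 and 39.1 in the Het-labelled, 16.8 and 32.7 in the WT-labelled and 34.5 and 29.0 in the SmoM2-labelled ones. A single WT-labelled library, replicate 1, stood lower than the other 7. The KO- minus WT-labelled difference was 0.73 (SE 0.279, edgeR adjusted p = 0.0794). It was 1.25 without WT-labelled replicate 2 (edgeR adjusted p = 0.00704) and the Het- minus WT-labelled one was then 0.94 (edgeR adjusted p = 0.0246). With a replicate block it was 0.77 (edgeR adjusted p = 0.0453), with all genes of 1 or more counts tested 0.71 (edgeR adjusted p = 0.00186), and with totals implied by the RPKM values 0.80 (edgeR adjusted p = 0.0471). Per length, Crabp2 exceeded Crabp1 by 2.14- to 2.47-fold in the KO- and Het-labelled libraries, by 5.04- and 6.68-fold in the WT-labelled ones and by 11.2- and 18.8-fold in the SmoM2-labelled ones. The groups did not overlap in this ratio apart from the KO- with the Het-labelled one.

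The 3 retinoic acid receptor genes did not move as a block. Rarb was lower and Rarg higher in the KO- and Het-labelled groups than in the WT-labelled one, and Rara was lower in the KO- than in the Het-labelled group. Their summed level was 27.6 and 31.3 RPKM in the KO-labelled libraries and 33.9 to 38.9 RPKM in the other 6. Rara made up the larger part in every library, between 58.8% and 70.0% of the sum. The share of Rarb was 17.9% to 21.9% in the 4 KO- and Het-labelled libraries, against 27.2% to 31.9% in the WT- and SmoM2-labelled ones. The share of Rarg was 12.2% to 19.2% in the former and 7.85% to 10.1% in the latter, so neither share overlapped between those sides.

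**Figure D3:**
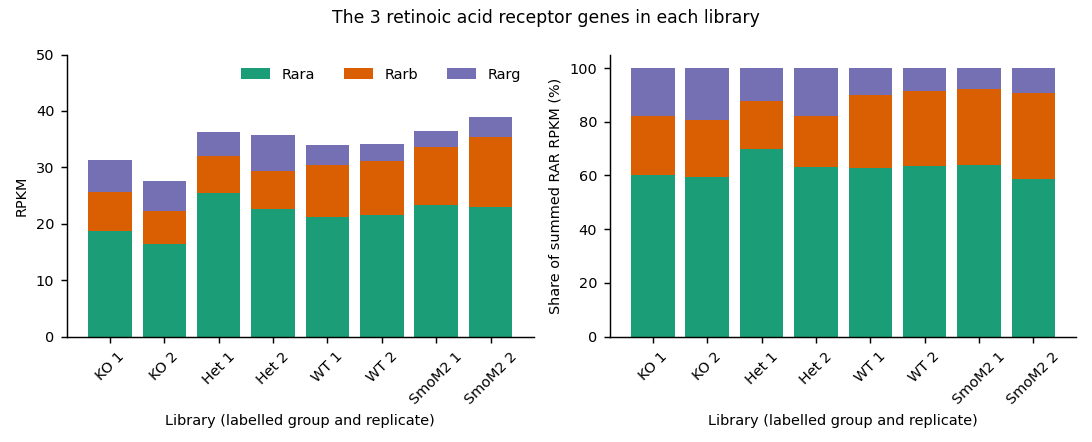
Level of Rara, Rarb and Rarg in RPKM, stacked (left), and their shares of the sum in percent (right), in each of the 8 libraries. Rara is the largest part everywhere, and the Rarb part is at or below 21.9% in the 4 libraries labelled KO or Het and at or above 27.2% in the other 4.

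Rarb encodes RARβ, and its own gene carries the repeats printed above. Its level was 30.6 and 25.9 CPM in the KO-labelled libraries, 30.2 and 31.8 in the Het-labelled, 41.0 and 45.7 in the WT-labelled and 49.0 and 58.8 in the SmoM2-labelled ones. No KO- or Het-labelled library overlapped with a WT- or SmoM2-labelled one. Rarb fell by 0.62 log2 units in the KO- against the WT-labelled group (SE 0.158, edgeR adjusted p = 0.0176). Against the SmoM2-labelled group it fell by 0.93 in the KO-labelled group (SE 0.158, edgeR adjusted p = 0.00145) and fell by 0.80 in the Het-labelled one (SE 0.152, edgeR adjusted p = 0.00255), calls that were made in all 14 other settings. The fall in the Het- against the WT-labelled group was 0.49 (SE 0.152, edgeR adjusted p = 0.0372). It was not called by DESeq2 (-0.48, adjusted p = 0.0747), with GC and length trends removed (-0.42, edgeR adjusted p = 0.0819), or without any 1 of the 4 libraries compared (-0.43 to -0.57, edgeR adjusted p from 0.0524 for WT-labelled replicate 1 to 0.16 for Het-labelled replicate 1). The KO- against WT-labelled call was lost without KO-labelled replicate 2 (-0.51, edgeR adjusted p = 0.0868) and without WT-labelled replicate 2 (-0.57, edgeR adjusted p = 0.0667). The SmoM2- minus WT-labelled difference of 0.31 (95% interval -0.01 to 0.63) had an unadjusted p of 0.0545 and an edgeR adjusted p of 0.669.

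The 3' end of Rarb faces that of Top2b, a topoisomerase gene on the opposite strand. In GENCODE M21, 1793 of the 5265 exonic bases of Rarb (34.1%, chr14:16430839-16435258) are also exonic in Top2b, and the strand setting of the counting is not given in the sources used here, so reads there may come from either gene. Rarb has a length of 3776 bases in the deposited table, so the overlapping share of the bases that were counted is not known. Top2b, at 172 to 309 CPM, itself fell by 0.51 log2 units in the KO- against the WT-labelled group (SE 0.12, edgeR adjusted p = 0.0127) and fell by 0.66 in the Het-labelled one (SE 0.12, edgeR adjusted p = 0.00324). Its SmoM2- minus WT-labelled difference was 0.09 (SE 0.118, edgeR adjusted p = 0.934). The part of Top2b reads in the Rarb result was not tested.

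Rarg encodes RARγ. Its level was 22.6 and 20.9 CPM in the KO-labelled libraries, 18.45 and 27.0 in the Het-labelled, 13.7 and 12.4 in the WT-labelled and 12.2 and 15.5 in the SmoM2-labelled ones. As for Crabp1, every KO- and Het-labelled library lay above every WT- and SmoM2-labelled one. Rarg rose by 0.73 log2 units in the KO- against the WT-labelled group (SE 0.232, edgeR adjusted p = 0.0408) and by 0.79 in the Het- against the WT-labelled group (SE 0.226, edgeR adjusted p = 0.0251). It was also 0.66 higher in the KO- than in the SmoM2-labelled group (SE 0.232, edgeR adjusted p = 0.0493) and 0.71 higher in the Het- than in the SmoM2-labelled group (SE 0.226, edgeR adjusted p = 0.0309). These calls sit close to the threshold. The KO- against WT-labelled one was made in 6 of 14 other settings and lost without any KO-, WT- or SmoM2-labelled library (0.63 to 0.80, edgeR adjusted p from 0.0505 to 0.164), by DESeq2 (0.71, adjusted p = 0.0592) and with GC and length trends removed (0.60, edgeR adjusted p = 0.092). The KO- against SmoM2-labelled one was made in 3 of 14 and lost without any 1 of the 8 libraries (0.44 to 0.79, edgeR adjusted p from 0.0523 to 0.296). The Het-labelled calls were lost without Het-labelled replicate 2 (0.48 against WT-labelled, edgeR adjusted p = 0.254, and 0.39 against SmoM2-labelled, edgeR adjusted p = 0.319) or without either library of the group compared with (0.51 to 0.86, edgeR adjusted p from 0.0528 to 0.208), and with sex as a factor (0.73, edgeR adjusted p = 0.0567, and 0.66, edgeR adjusted p = 0.0609) or GC and length trends removed (0.47, edgeR adjusted p = 0.148, and 0.35, edgeR adjusted p = 0.248).

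Rara encodes RARα, the most abundant receptor of the set. Its level was 91.7 and 78.6 CPM in the KO-labelled libraries, 129 and 116 in the Het-labelled, 104 and 113 in the WT-labelled and 120 and 119 in the SmoM2-labelled ones. Both KO-labelled libraries were below the other 6. Rara fell by 0.53 log2 units in the KO- against the Het-labelled group (SE 0.13, edgeR adjusted p = 0.0307) and fell by 0.49 against the SmoM2-labelled group (SE 0.129, edgeR adjusted p = 0.0148), and the KO- minus WT-labelled difference of -0.34 missed the threshold (SE 0.129, edgeR adjusted p = 0.0759). The KO- against Het-labelled comparison sets 2 male against 2 female libraries, and the difference was -0.47 with sex as a factor (edgeR adjusted p = 0.116), -0.28 with GC and length trends removed (edgeR adjusted p = 0.206) and -0.43 to -0.64 without any 1 of its 4 libraries (edgeR adjusted p from 0.0518 for KO-labelled replicate 1 to 0.213 for Het-labelled replicate 1). The KO- against SmoM2-labelled call was lost without KO-labelled replicate 2 (-0.39, edgeR adjusted p = 0.0778), and with GC and length trends removed the KO- against WT-labelled difference passed the test (-0.42, edgeR adjusted p = 0.0302).

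Rxra, which encodes the shared partner RXRα, was 66.0 and 59.7 CPM in the KO-labelled libraries, 56.9 and 70.0 in the Het-labelled, 79.5 and 81.0 in the WT-labelled and 76.2 and 77.7 in the SmoM2-labelled ones. The 4 lower values are those of the KO- and Het-labelled libraries, without overlap with the others, and no comparison passed the test. The difference from the WT-labelled group was -0.35 for the KO-labelled group (95% interval -0.65 to -0.06, edgeR adjusted p = 0.0807) and -0.34 for the Het-labelled group (95% interval -0.63 to -0.05, edgeR adjusted p = 0.0806). With GC and length trends removed, the Het-labelled group passed the test against the WT-labelled one (-0.56, edgeR adjusted p = 0.0104) and the SmoM2-labelled one (-0.50, edgeR adjusted p = 0.0111).

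**Figure D4:**
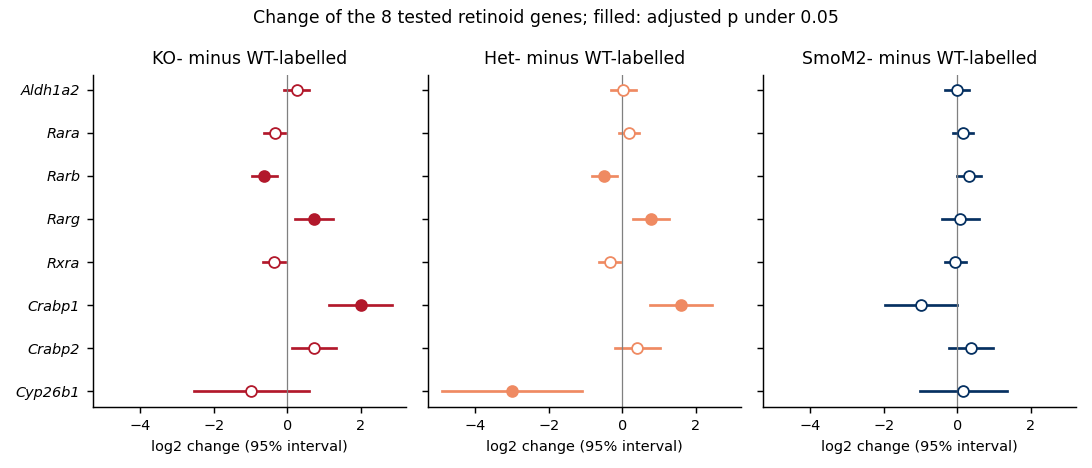
Log2 difference from the WT-labelled group for the 8 tested genes, in the KO-, Het- and SmoM2-labelled groups. Points are fitted values, lines 95% intervals, and filled points have an edgeR adjusted p under 0.05. Crabp1 and Rarg are right of 0 and Rarb left of 0 in the KO- and Het-labelled panels, no point is filled in the SmoM2-labelled panel, and the Het-labelled value of Cyp26b1 rests on 1 read per library.

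The clearing enzymes were near the limit of detection. Cyp26b1 had 5 and 1 reads in the KO-labelled libraries, 1 and 1 in the Het-labelled, 13 and 13 in the WT-labelled and 17 and 10 in the SmoM2-labelled ones. It passed the filter through the WT- and SmoM2-labelled libraries, and its Het-labelled level lies at the floor of 3 reads, so its direction there is bound to the filter. The WT-labelled level was 8.73 times the Het-labelled one, with a 95% counting interval from 2.19 to 75.9, and the SmoM2-labelled level 9.79 times, with an interval from 2.46 to 85.0. Intervals and floors cover counting error only. The edgeR test passed for both (adjusted p = 0.0268 against the WT-labelled and 0.016 against the SmoM2-labelled group). The DESeq2 test did not (adjusted p = 0.0945 and 0.0621), and neither did edgeR without any 1 of the Het- or WT-labelled libraries in the first comparison (adjusted p from 0.0626 to 0.154) or without either Het-labelled library or SmoM2-labelled replicate 1 in the other (adjusted p from 0.0783 to 0.104). The KO-labelled libraries gave 1.11 and 0.218 CPM and so lay between the Het-labelled libraries and all WT- and SmoM2-labelled ones, and no KO-labelled comparison passed. Cyp26a1, the other gene with repeats at its promoter, was not tested. It had 2 and 2 reads in the KO-labelled libraries, 5 and 5 in the SmoM2-labelled ones and none in the Het- or WT-labelled ones, and taking the floor of 3 reads per library the level under SmoM2 was at least 1.80-fold higher than that under WT.

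Set side by side, the comparisons differed in how many members passed the test, and all but 1 of those counts lie where many genes of the whole table passed too. Against the WT-labelled group, 3 of 8 tested members passed in the KO-labelled group, 2 higher (Crabp1 and Rarg) and 1 lower (Rarb). Of all 13459 tested genes 23.0% passed there, 11.6% higher and 11.4% lower. In the Het-labelled group 3 passed apart from Cyp26b1, Crabp1 and Rarg higher and Rarb lower, where 25.3% of all genes passed, 13.1% higher and 12.2% lower. Cyp26b1 passed too, and since the filter kept it through the groups where it is high, it is not read against the background. In the SmoM2-labelled group no member passed by edgeR, none of the 7 to which DESeq2 gave an adjusted p passed by DESeq2, 1 (Crabp1) had an unadjusted p under 0.05, and 0.223% of all genes passed, 0.156% higher and 0.0669% lower. These 3 comparisons share the WT-labelled libraries, so their values are not independent of each other.

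Between the KO- and Het-labelled groups 1 member passed, Rara, against 9.43% of all genes (4.33% with the KO-labelled level higher and 5.10% with it lower). Between the KO- and SmoM2-labelled groups 4 passed, Crabp1 and Rarg higher and Rara and Rarb lower, against 32.5% of all genes (16.5% higher and 16.0% lower). Between the Het- and SmoM2-labelled groups 3 passed apart from Cyp26b1, Crabp1 and Rarg higher and Rarb lower, against 33.7% of all genes (16.9% higher and 16.7% lower). In the test for any difference among the 4 groups 4 passed apart from Cyp26b1 (Crabp1, Rara, Rarb and Rarg), against 41.0% of all genes. Only 8 members were tested, so a share of members near these backgrounds is not a result about the set.

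The libraries of 2 groups did not overlap for 8 of 8 tested members between the KO- and WT-labelled groups (62.0% of all genes). They did not overlap for 6 between the Het- and WT-labelled (66.9%) and for 3 between the SmoM2- and WT-labelled groups (35.8%). Among the other pairs the number was 4 between the KO- and Het-labelled (56.9%), 8 between the KO- and SmoM2-labelled (67.1%) and 5 between the Het- and SmoM2-labelled groups (70.9%). Cyp26b1 is among these members in every comparison but the SmoM2- against WT-labelled one. The filter kept it through the groups where it is high, so it is not read against these shares. The median log2 difference of the 8 members from the WT-labelled group was -0.04 under the KO label, 0.10 under Het and 0.11 under SmoM2, where the median of all tested genes was 0.03, -0.02 and 0.00. Members that went up and members that went down thus left the centre of the set close to that of all genes, and placing Cyp26b1 at its bound does not move the Het-labelled median.

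Of 13 other genes that handle retinoids, 6 were tested, and the remaining 7 (Rbp4, Lrat, Dhrs9, Bco1, Aldh1a1, Aldh8a1 and Cyp26c1) had few or no reads. In the KO- against the WT-labelled group Fabp5, which can carry retinoic acid, rose and Aldh1a3 fell, where 11.6% of all genes were higher and 11.4% lower. The Fabp5 rise of 0.71 (edgeR adjusted p = 0.0247), in a gene of 953 bases, was lost without KO-labelled replicate 1 or 2 or WT-labelled replicate 1 (0.48 to 0.75, edgeR adjusted p from 0.0638 to 0.143) and with GC and length trends removed (0.42, edgeR adjusted p = 0.134). In the Het- against the WT-labelled group Stra6, the retinol uptake receptor, and Dhrs3, which reduces retinaldehyde back to retinol, rose and Aldh1a3 fell, where 13.1% of all genes were higher and 12.2% lower. The Stra6 rise of 0.76 (edgeR adjusted p = 0.0231) was lost without Het-labelled replicate 1 or 2 or WT-labelled replicate 1 (0.42 to 0.78, edgeR adjusted p from 0.0875 to 0.132) and with GC and length trends removed (0.53, edgeR adjusted p = 0.103). The Dhrs3 rise of 0.88 (edgeR adjusted p = 0.0228) was lost without Het-labelled replicate 1 or 2 or WT-labelled replicate 2 (0.60 to 0.96, edgeR adjusted p from 0.0605 to 0.142). None passed in the SmoM2- against the WT-labelled group by edgeR or DESeq2, and 2 (Dhrs3 and Rdh10) had an unadjusted p under 0.05 by edgeR. Aldh1a3, another retinaldehyde dehydrogenase, was 4.87 and 3.05 CPM in the KO-labelled libraries, 3.61 and 3.23 in the Het-labelled, 10.5 and 8.60 in the WT-labelled and 5.22 and 8.78 in the SmoM2-labelled ones, with no overlap between the WT-labelled libraries and the KO- or Het-labelled ones. It fell by 1.27 log2 units in the KO-labelled (SE 0.362, edgeR adjusted p = 0.0271) and fell by 1.48 in the Het-labelled group (SE 0.349, edgeR adjusted p = 0.0111). Per length, Aldh1a2 exceeded Aldh1a3 by at least 88.0-fold in each library. Without KO-labelled replicate 1, KO-labelled replicate 2 or WT-labelled replicate 1 the KO-labelled call was lost (adjusted p 0.056, 0.143 and 0.103 by edgeR), and without either Het-labelled library the Het-labelled one (0.0544 and 0.0685).

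Dhrs3 and Rdh10 act on the same step in opposite directions, RDH10 oxidising retinol to retinaldehyde. Dhrs3 was 89.2 and 47.9 CPM in the KO-labelled libraries, 94.9 and 111 in the Het-labelled, 66.6 and 44.6 in the WT-labelled and 33.4 and 34.3 in the SmoM2-labelled ones. It was 1.60 log2 units higher in the Het- than in the SmoM2-labelled group (SE 0.255, edgeR adjusted p = 0.000933), a call made in all 14 other settings. Rdh10 was 265 and 326 CPM in the KO-labelled libraries, 439 and 424 in the Het-labelled, 380 and 279 in the WT-labelled and 212 and 260 in the SmoM2-labelled ones. It was 0.87 log2 units higher in the Het- than in the SmoM2-labelled group (SE 0.168, edgeR adjusted p = 0.00279), also called in all 14. Both genes were thus higher in the Het- than in the SmoM2-labelled group, without overlap of the libraries, where 70.9% of all genes did not overlap. In that comparison 5 of the 6 tested genes of this list passed by edgeR. Stra6 was higher as well, which made 3, and Aldh1a3 and Fabp5 made 2 that were lower. Of all genes 16.9% were higher and 16.7% lower there. The calls of Aldh1a3 and Fabp5 sat close to the threshold (edgeR adjusted p = 0.0456 and 0.0469). Neither was called by DESeq2, by which 3 of the 6 genes passed, and both were lost without some single libraries. The Aldh1a3 call was also lost with totals implied by the RPKM values, and the Fabp5 call with GC and length trends removed.

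Among 8 receptor partners and coregulators, 7 were tested, with Rxrg left out at 3 reads or fewer in every library. In the KO- against the WT-labelled group 4 of the 7 fell and none rose, with a median of -0.46 log2 units, where 11.4% of all genes were lower and 11.6% higher. The median of all genes over 4000 bases was -0.231 there. The 4 were the coactivator genes Ncoa1, Ncoa2 and Ncoa3, and Nrip1, a corepressor that binds liganded receptors. Ncoa1 was 53.4 and 56.0 CPM in the KO-labelled libraries, 64.4 and 77.5 in the Het-labelled, 136 and 107 in the WT-labelled and 114 and 113 in the SmoM2-labelled ones. All KO- and Het-labelled libraries lay below the WT- and SmoM2-labelled ones. Ncoa1 fell by 1.16 in the KO- against the WT-labelled group (SE 0.151, edgeR adjusted p = 0.00061) and fell by 1.06 against the SmoM2-labelled group (SE 0.151, edgeR adjusted p = 0.000561). In the Het- against the WT-labelled group 2 of the 7 rose (Rxrb and Ppard) and 1 fell (Ncoa1), where 13.1% of all genes were higher and 12.2% lower. The Ppard call (0.59, edgeR adjusted p = 0.0223) was lost without Het-labelled replicate 1 or 2 or WT-labelled replicate 2 (edgeR adjusted p up to 0.142). In the SmoM2- against the WT-labelled group none passed by edgeR or DESeq2 and 1 (Ncoa3) had an unadjusted p under 0.05 by edgeR. The 4 genes that fell in the KO-labelled group are between 4529 and 8514 bases long in the table, and long genes as a whole stood lower in the KO-labelled libraries. With GC and length trends removed, Ncoa3 (-0.17, adjusted p = 0.356) and Nrip1 (-0.65, adjusted p = 0.072) were not called by edgeR in the KO- against the WT-labelled group and Rxrb was not called in the Het-labelled group (0.21, adjusted p = 0.156). The Ncoa3 call was also lost with sex as a factor and without KO-labelled replicate 1 or 2 or WT-labelled replicate 2, and the Nrip1 call with sex as a factor and without KO-labelled replicate 1 or WT-labelled replicate 1 or 2 (edgeR adjusted p up to 0.356 and 0.174 over all settings). The falls of Ncoa1 and Ncoa2 in the KO- against the WT-labelled group were called in all 14 other settings.

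Of 11 genes known to respond to retinoic acid, 8 were tested. In the KO- against the WT-labelled group Meis1 and Tgm2 rose, and Ret passed the test with a lower level, where 11.6% of all genes were higher and 11.4% lower. In the Het- against the WT-labelled group Meis1 and Hoxd4 rose and none fell (13.1% and 12.2% of all genes), and in the SmoM2-labelled group none passed by edgeR or by DESeq2, which gave 7 of them an adjusted p, and 1 (Hoxa4) had an unadjusted p under 0.05 by edgeR. The Hoxd4 rise of 0.87 (edgeR adjusted p = 0.0103) was lost without Het-labelled replicate 2 (edgeR adjusted p = 0.0647). Meis1, a homeobox gene also known as a marker of kidney stroma, was 86.4 and 98.4 CPM in the KO-labelled libraries, 114 and 99.9 in the Het-labelled, 16.97 and 11.8 in the WT-labelled and 10.4 and 11.6 in the SmoM2-labelled ones. It rose by 2.68 log2 units in the KO-labelled (SE 0.179, edgeR adjusted p = 2.28e-05) and by 2.89 in the Het-labelled group (SE 0.177, edgeR adjusted p = 1.16e-05) against the WT-labelled one, and both calls were made in all 14 other settings. Tgm2, the tissue transglutaminase gene, was 9.30 and 5.66 CPM in the KO-labelled libraries and 2.98 and 2.51 in the WT-labelled ones, a rise of 1.44 (SE 0.357, edgeR adjusted p = 0.0157) that was lost without KO-labelled replicate 1 (1.03, edgeR adjusted p = 0.14) or WT-labelled replicate 2 (1.29, edgeR adjusted p = 0.0734). Ret had 0 and 2 reads in the KO-labelled and 21 and 12 in the WT-labelled libraries. It lies at the floor of 3 reads in the KO-labelled group, so its direction is bound to the filter, and its call (edgeR adjusted p = 0.0454) was made in 5 of 14 other settings. It was lost by DESeq2 (adjusted p = 0.122), with GC and length trends removed (edgeR adjusted p = 0.0815) and without any 1 library but KO-labelled replicate 2 (edgeR adjusted p from 0.0539 to 0.225).

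**Figure D5:**
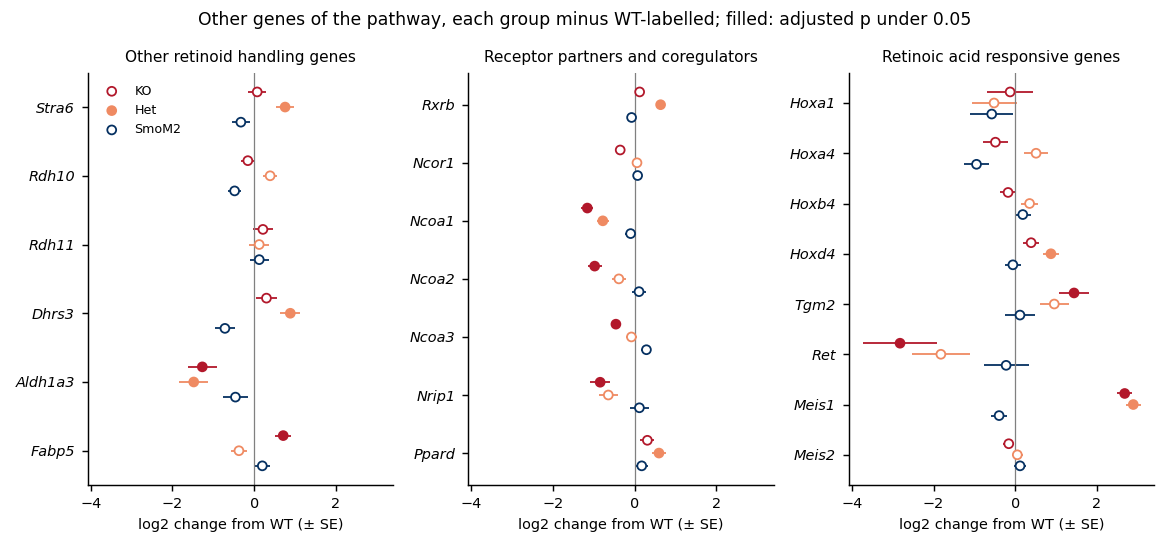
Log2 difference from the WT-labelled group (± SE) for the tested genes of the 3 other lists, in the KO-, Het- and SmoM2-labelled groups. Filled points have an edgeR adjusted p under 0.05. The coregulators lean left in the KO-labelled group (median -0.46), Meis1 stands furthest right at 2.68 and 2.89, and no SmoM2-labelled point is filled.

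Stromal markers were followed because Aldh1a2, Crabp1 and Meis1 are known from kidney stroma as well. The 12 stromal genes summed to 266 to 952 CPM in the KO-labelled libraries, 331 to 564 in the Het-labelled, 475 to 822 in the WT-labelled and 772 to 911 in the SmoM2-labelled ones. Those ranges overlap except between the Het- and SmoM2-labelled libraries. Of the 11 tested, Tcf21 rose and Foxd1 fell in the KO- and in the Het- against the WT-labelled group (edgeR adjusted p from 4.9e-05 to 0.000389). Foxd1, the defining stromal factor, had a mean of 8.27 ± 6.46 CPM (SD, n = 2) under the KO label and 18.53 ± 5.55 under Het. Its mean was 184 ± 17.8 under WT and 343 ± 59.4 under SmoM2, the reverse of the order of the Crabp1 means. Tcf21 had means of 134 ± 0.361 CPM under KO, 120 ± 7.73 under Het, 31.8 ± 13.8 under WT and 31.5 ± 5.02 under SmoM2. Those are high where Crabp1 is high, so the stromal genes that passed go both ways. Collecting duct genes, which mark the bud that retinoic acid is known to act on, summed to 17.5 to 23.3 CPM in the KO-labelled libraries, 5.78 to 6.02 in the Het-labelled, 17.9 to 19.2 in the WT-labelled and 32.7 to 46.7 in the SmoM2-labelled ones. Tfap2b was at 0 in every library and Wnt9b in the KO- and Het-labelled ones. Wnt11, a gene of the bud tips, had means of 2.09, 0.941, 8.65 and 29.2 CPM under KO, Het, WT and SmoM2, and differed from the WT-labelled group by -2.05 in the KO-labelled (edgeR adjusted p = 0.00643), -3.14 in the Het-labelled (edgeR adjusted p = 0.000908) and 1.75 in the SmoM2-labelled group (edgeR adjusted p = 0.043). Erythroid genes summed to 13.7 to 45.2 CPM in the KO-labelled libraries, 19.9 to 24.9 in the Het-labelled and 2.77 to 7.87 in the others. Of the 4 erythroid genes tested, 3 rose in the KO- and 2 in the Het- against the WT-labelled group, where 11.6% and 13.1% of all genes were higher. Hba-a1 rose by 2.95 and 2.71 (edgeR adjusted p = 0.00993 and 0.0123). Hba-a2 had the same mean and SD as Hba-a1 in every group, so the 2 genes give 1 signal. The Het-labelled count rests on these 2 genes alone. The part of other cells in the changes above was not tested.

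Across the 8 libraries, the tested genes closest to each member that differed among the groups were found by the root mean square difference of log2 CPM centred on each gene's mean, among 12459 genes. Rara was closest to Tmem198b (0.049) and Pcgf2 (0.05), and Rarb to Elovl5 (0.0755), a fatty acid elongase gene, and Mylip (0.0837), a ubiquitin ligase gene. Rarg was closest to BC029722 (0.116) and Nt5m (0.141), Crabp1 to C430049B03Rik (0.25) and Wipf3 (0.311), and Cyp26b1 to Snhg10 (0.336) and Adgrg1 (0.339). Wipf3 had means of 29.4, 18.9, 5.61 and 2.99 CPM in the KO-, Het-, WT- and SmoM2-labelled groups, in the same order as Crabp1. Mylip had means of 102, 99.2, 150 and 181 CPM, low in the KO- and Het-labelled groups as Rarb was. The libraries fall into 2 sides, KO- and Het- against WT- and SmoM2-labelled, so the 8 libraries give few independent points for this measure.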

How the data were processed

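RNA of sorted nephron progenitors was sequenced in 8 libraries, 2 in each of 4 groups taken from the labels. Per the labels' protocols, polyadenylated RNA was selected and cDNA was made into DNA libraries. Reads were aligned with STAR to mm10 and counted with featureCounts of Subread, per the submitters' processing notes, which list these names without versions. The annotation and the strand setting are not given in the sources used here. Per the file headers, the deposited table holds raw read counts, RPKM values and a length for each gene symbol. The listed counts made up 81.1% to 83.3% of the library totals that the RPKM values imply.

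The counts entered a two-sided quasi-likelihood test of edgeR 4.0.16, run in R 4.3.3 (filterByExpr, trimmed mean of M values, 4 group means fitted over all 8 libraries), which left 13459 genes and a biological coefficient of variation of 13.5%. Benjamini-Hochberg adjustment ran over all of them, and a gene passed at an adjusted p under 0.05. SE and 95% intervals come from the quasi-likelihood statistic. Levels are CPM at the scaled library size, log2 CPM used a prior count of 2, and the deposited RPKM values served to compare genes. A floor of 3 counts corresponds to 0.28 to 0.66 CPM. The fit was tested on simulated data. The alternatives were DESeq2 1.42.0, no filter beyond 1 count, library totals implied by the RPKM values, the replicate number as a block, sex (from Xist and Y-linked reads) as a factor, each library left out in turn, and, chosen after seeing the data, removal of GC and length trends over the 13170 genes (97.9%) with a GC value in GENCODE M21. The members, gene lists and tests were chosen with earlier results of these data known. The rule for named genes took all 9 members, the genes of the 3 pathway lists (some genes of these lists are not reported here, and counts leave them out), defining marker genes, Smo, and for each member that differed among the groups the 2 genes nearest in centred log2 CPM, among those with a mean log2 CPM of at least 1. Top2b and Tcf21 were named after their values were seen. Promoters and gene positions are those of RefSeq, and overlaps those of GENCODE M21.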

Additional observations from a re-analysis of the deposited data

How the results depend on the processing

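Rarb in the 3 comparisons with the SmoM2-labelled group and Crabp1 in all but the Het- against WT-labelled one kept direction and call in all 14 alternatives. Counting Cyp26b1 where it passed, here and below, members passing in the Het- against WT-labelled comparison numbered 2 by DESeq2 in place of 4. With sex as a factor, 0 passed in the KO- against Het-labelled comparison in place of 1 and 3 among the 4 groups in place of 5, and with GC and length trends removed 0 passed between KO- and Het-labelled. Leaving out 1 library gave 1 to 3 members for KO- against WT-labelled, 0 to 4 for Het- against WT-labelled, 0 to 1 for KO- against Het-labelled, 2 to 3 for KO- against SmoM2-labelled, 2 to 4 for Het- against SmoM2-labelled and 3 to 4 among the 4 groups. Where 1 library is left, it is assumed to vary like the others. Fewer libraries were tested there, and for the other settings the cause was not tested.

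The replicate numbers are shared by the labels only, which name no litter or batch. The correlation of replicate differences between groups ran from -0.0606 to 0.391, the highest between the WT- and SmoM2-labelled groups, in both of which replicate 1 is male and replicate 2 female. With the replicate block, 4 members passed for KO- against WT-labelled, 4 for Het- against WT-labelled, 0 for SmoM2- against WT-labelled, 1 for KO- against Het-labelled, 4 for KO- against SmoM2-labelled, 4 for Het- against SmoM2-labelled and 5 among the 4 groups.

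Apart from that of Ncor1, the differences that changed sign had not passed the test. With GC and length trends removed they were, for Aldh1a2, -0.0189 (Het- minus WT-labelled), 0.00218 (SmoM2- minus WT-labelled) and -0.0211 (Het- minus SmoM2-labelled), for Rara -0.142 (Het- minus WT-labelled) and -0.314 (Het- minus SmoM2-labelled), and between KO- and Het-labelled 0.127 for Rarg, 0.277 for Rxra and -0.0315 for Crabp2. Ncor1 was then 0.111 (KO- minus SmoM2-labelled). With sex as a factor, Aldh1a2 was -0.109 (Het- minus WT-labelled) and -0.0899 (Het- minus SmoM2-labelled), Crabp2 -0.147 (Het- minus SmoM2-labelled), and between KO- and Het-labelled Rarb was 0.0781, Rarg 0.0467 and Rxra 0.0161. With totals implied by the RPKM values, Rarg was 0.019 and Rxra 0.0637 between KO- and Het-labelled. Leaving out 1 library in turn, Aldh1a2 ran from -0.104 to 0.133 (Het- minus WT-labelled), -0.174 to 0.145 (SmoM2- minus WT-labelled) and -0.145 to 0.174 (Het- minus SmoM2-labelled). Het- minus SmoM2-labelled, Rara ran from -0.0874 to 0.0873 and Crabp2 from -0.274 to 0.257. KO- minus Het-labelled, Rarg ran from -0.317 to 0.217 and Rxra from -0.16 to 0.122. SmoM2- minus WT-labelled, Rarg ran from -0.0937 to 0.255, Crabp2 from -0.0399 to 0.933 and Cyp26b1 from -0.168 to 0.413.

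Of all tested genes, 30 passed between SmoM2- and WT-labelled, 79 by DESeq2, 356 without the filter, 54 with the block, 54 with sex, 19 with trends removed and 8 to 81 without 1 library. Between KO- and Het-labelled 1269 passed, 2217 without the filter, 320 with trends removed and 36 to 1472 without 1 library. The KO-labelled libraries are the shallowest, and Cyp26a1 and Cyp26b1 lie at a depth where single reads decide a level.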
